A study of Mus musculus with 17 samples.

Results

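Mononucleosome-size DNA around gene start sites was compared between mouse embryonic stem (ES) cells and mouse sperm, in the supernatants left after the micrococcal nuclease (MNase) digests that the study used as its standard. The comparison takes 2 of the 17 samples of the series, 1 library on each side, so no difference below has a replicate check and no p-value is given. The members are the start sites in the 2 tables: of 28015 rows, 23456 start sites were used after repeated positions were taken once and positions without signal in either library were left out. A gene symbol was found for 21083 genes, each read at the start site with the most signal within 1000 bp.

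The ES cells were the E14 line, of the strain background 129 X Ola, grown without feeder cells on gelatin in medium with serum and LIF. Their nuclei received 10 units of MNase per 1000000 cells for 5 min at 37 °C, were rotated for 4 h at 4 °C and were spun at 5000 g for 5 min, after which the supernatant was sequenced. Sperm were taken from the vas deferens and cauda epididymis of mice aged 10 weeks, given in the labels as C57/B6J and as C57/6J, were collected by swim-up and were fixed with 1% formaldehyde for 15 min. They received 1 unit per 100000000 cells for 5 min at 37 °C and the same spin, and again the supernatant was sequenced. The labels describe fixation for sperm and none for ES cells, and the sides also differ in strain, enzyme per cell and rotation before the spin, so cell type, strain and preparation cannot be told apart. The tables hold DNA and not RNA, so the cells could not be checked by the levels of marker genes. How many mice or cultures stand behind each library is not stated. Sperm DNA was also digested without a spin at 0.5, 2, 10 and 50 units, and those 4 shallower libraries, the other tables of the same kind, are set beside the results below.

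MNase cuts the linker DNA between nucleosomes, and a stretch wrapped around a histone octamer survives as a fragment of roughly nucleosome size. In sperm most histones have been replaced by protamines, which pack DNA tightly, and the histones that remain have been studied as a possible carrier of information to the embryo. Active promoters in dividing cells typically have a nucleosome-poor stretch at the start site, and promoters rich in CpG dinucleotides show it most clearly. A centrifugation step removes chromatin that stays insoluble, so a supernatant holds the digested DNA that came free.

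The values are pileups of nucleosome-size fragments, which the table names limit in length from below as well as to 165 bp, in bins of 20 bp over 2000 bp to each side of the start site. A lone fragment added about 22 to a row, and sums divided by that value are called fragments here. Each library was scaled to its own total, 1762510 fragments in ES cells and 1272530 in sperm, or 33.0 and 22.1 per start site within 1000 bp. Ratios are given as log2 of sperm over ES cells with 1 fragment added to each side for a single gene and none for summed fragments. In ES cells 34.5% of lone fragment positions carried copies with identical ends, against 5.30% in sperm, so the counts behind each 95% interval were divided by 2.13 and 1.12. Those exact binomial intervals cover counting error only, and not the variation between cultures, mice or digests.

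Promoter sequences of 6 genes that mark the ends of the comparison are shown first, as RefSeq gives them for GRCm38.p6, from 250 bases before the annotated start to 50 after it, read along the gene, with each CpG in capitals. Olfr613, an olfactory receptor gene, and Vmn2r14, a vomeronasal receptor gene, had the highest sperm to ES ratios within 1000 bp among the olfactory and the type 2 vomeronasal receptors with a mean of at least 20 fragments there. The highest and lowest members of other lists named below were taken by the same limit. They hold 1 and 3 CpG.
Olfr613: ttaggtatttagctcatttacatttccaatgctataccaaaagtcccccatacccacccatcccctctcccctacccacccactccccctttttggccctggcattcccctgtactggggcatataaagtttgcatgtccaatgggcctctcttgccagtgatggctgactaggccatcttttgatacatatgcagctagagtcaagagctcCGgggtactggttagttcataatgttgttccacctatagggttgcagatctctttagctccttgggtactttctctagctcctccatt
Vmn2r14: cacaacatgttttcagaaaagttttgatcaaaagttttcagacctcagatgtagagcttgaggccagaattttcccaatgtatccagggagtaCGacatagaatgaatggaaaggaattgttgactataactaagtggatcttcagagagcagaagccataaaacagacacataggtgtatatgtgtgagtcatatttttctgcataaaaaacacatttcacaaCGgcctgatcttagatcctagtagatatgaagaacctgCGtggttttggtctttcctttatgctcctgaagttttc
Nudt5, which encodes a nucleotide-sugar hydrolase, and H2-Ob, which encodes a chain of a protein that modulates peptide loading of major histocompatibility complex class II, were among the 8 genes whose start site stood lowest in sperm. Nudt5 has a CpG-rich promoter with 20 CpG in this window and H2-Ob has 2.
Nudt5: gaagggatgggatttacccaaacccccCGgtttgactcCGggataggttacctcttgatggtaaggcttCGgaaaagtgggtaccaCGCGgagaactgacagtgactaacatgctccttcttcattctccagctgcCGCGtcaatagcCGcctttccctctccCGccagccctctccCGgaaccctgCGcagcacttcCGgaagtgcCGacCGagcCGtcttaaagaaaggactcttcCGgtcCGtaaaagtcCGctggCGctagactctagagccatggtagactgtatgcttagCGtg
H2-Ob: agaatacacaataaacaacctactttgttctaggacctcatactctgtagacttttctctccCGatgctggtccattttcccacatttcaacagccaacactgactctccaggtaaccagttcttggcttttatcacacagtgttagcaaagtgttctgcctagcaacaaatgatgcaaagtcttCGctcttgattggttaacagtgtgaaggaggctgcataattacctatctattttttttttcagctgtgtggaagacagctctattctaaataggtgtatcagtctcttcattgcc
Hprt, which encodes a purine salvage enzyme, and Skint9, of a family of immunoglobulin-like membrane proteins of skin and thymus, had no fragment in the ES cell library within 2000 bp of the start, and 37 and 139 in sperm. They hold 22 and 0 CpG.
Hprt: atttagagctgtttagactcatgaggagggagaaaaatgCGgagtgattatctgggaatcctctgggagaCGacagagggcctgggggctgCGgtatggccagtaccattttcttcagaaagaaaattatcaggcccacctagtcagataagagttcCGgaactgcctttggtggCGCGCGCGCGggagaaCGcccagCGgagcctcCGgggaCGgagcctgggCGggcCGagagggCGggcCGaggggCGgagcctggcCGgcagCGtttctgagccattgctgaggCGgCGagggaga
Skint9: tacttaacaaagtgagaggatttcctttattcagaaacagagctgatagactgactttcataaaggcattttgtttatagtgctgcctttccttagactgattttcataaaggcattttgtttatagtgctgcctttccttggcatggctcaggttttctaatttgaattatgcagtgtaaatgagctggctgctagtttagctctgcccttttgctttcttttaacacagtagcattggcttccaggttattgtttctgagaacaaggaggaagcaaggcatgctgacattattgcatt
Coordinates given for genes below are start sites in mm9, as the deposited rows state them, and the RefSeq start may differ from the deposited one.

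Both libraries had less signal at start sites than around them, and the gap was deeper, broader and further downstream in sperm. Over all 23456 start sites the lowest point in ES cells was 0.482 of the flanks, the mean of the stretches 1000 to 2000 bp away on both sides, and lay at -10 bp. In sperm it was 0.367 of the flanks and lay at 130 bp. The gap measured at 50% of its depth ran from -230 to 530 bp in ES cells, a width of 760 bp, and from -270 to 650 bp in sperm, a width of 920 bp.

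CpG-rich promoters carried most of that shape. The classes of CpG content are the authors' (high, intermediate and low, per a column of another table of the series) and cover 10564, 3079 and 2833 of the start sites used. At high-CpG promoters the minimum was 0.239 of the flanks at -10 bp in ES cells and 0.151 at 130 bp in sperm, and the widths were 780 and 1000 bp. The ES cell profile turned upward at the start site itself, from 0.235 in the bin at -10 bp to 0.304 at 110 bp and 0.341 at 210 bp. Over the same stretch the sperm profile went on down, from 0.195 at -10 bp to 0.152 at 110 bp and 0.167 at 210 bp. Each relative to its flanks, the sperm profile was 0.899 of the ES cell profile from 100 to 20 bp upstream of the start and 0.476 of it at 170 bp downstream.

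Intermediate-CpG promoters had a shallower gap, 0.769 at -30 bp in ES cells and 0.580 at 90 bp in sperm. At low-CpG promoters the lowest point lay inside the gene in both libraries, 0.807 of the flanks at 230 bp in ES cells and 0.637 at 170 bp in sperm. In each of the 3 classes the sperm minimum was thus the lower of the pair. The deposited signal is smooth over about the length of 2 fragments: a wave of 190 bp, close to the usual spacing of nucleosomes, keeps 8.44% of its height in it, so positions of single nucleosomes or their spacing could not be read.

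**Figure D1:**
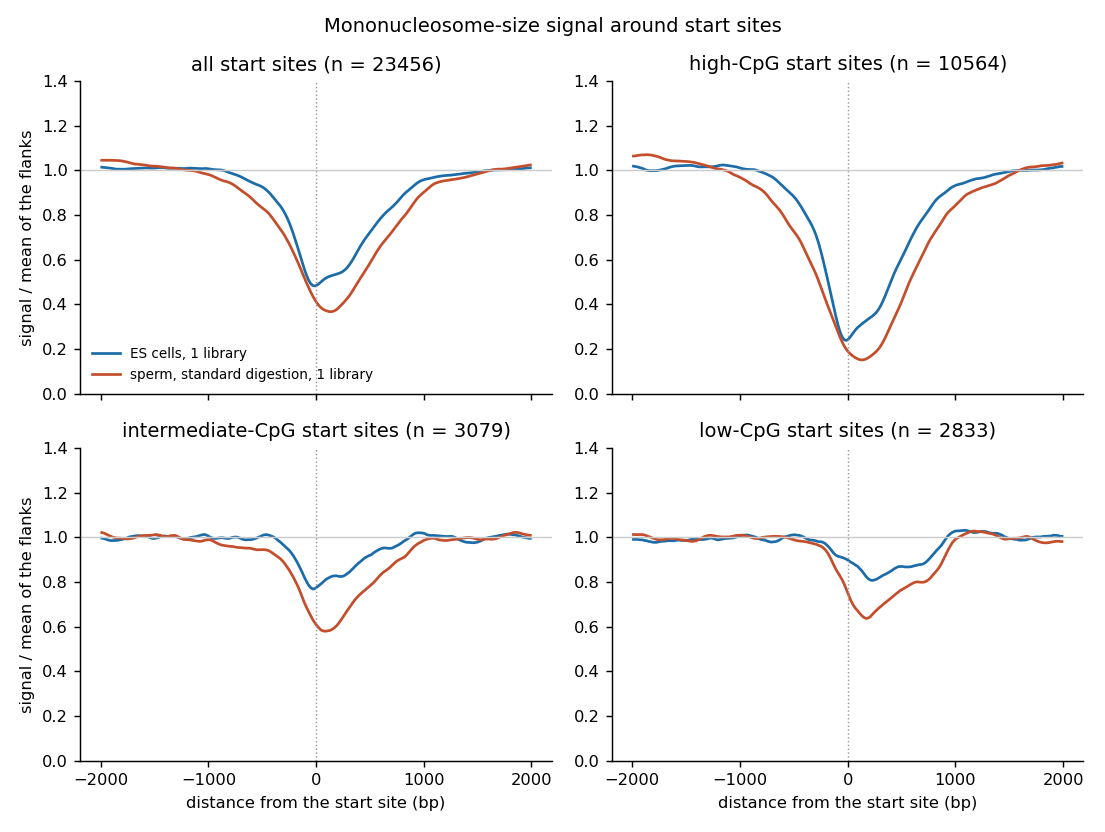
Mean signal per 20 bp bin (smoothed over 3 bins), divided by the mean of the flanks, against distance from the start site in bp, for all start sites and for 3 classes of CpG content, 1 library per line. At high-CpG start sites the ES cell line has its minimum of 0.239 at -10 bp and turns upward, while the sperm line reaches 0.151 at 130 bp.

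Share by share, the 300 bp after the start site set the libraries apart at high-CpG promoters. Sperm held 0.520 times the ES cell share there, a log2 ratio of -0.94 (95% interval -0.99 to -0.90), from 8308 fragments in sperm and 22120 in ES cells. The ratio was -0.29 (-0.33 to -0.24) in the 200 bp before the start, -0.25 from 1000 to 200 bp upstream, -0.40 from 300 to 1000 bp downstream, and -0.01 and -0.06 in the upstream and downstream flanks. The deficit in sperm was therefore local to the promoter and largest on its transcribed side. Low-CpG promoters had the opposite sign around a matching dip: 0.32 in the upstream flank, 0.19 in the 200 bp before the start, -0.03 (-0.07 to 0.02) in the 300 bp after it and 0.29 in the downstream flank. Intermediate-CpG promoters lay between, with 0.15 in both flanks and -0.28 after the start.

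Counted gene by gene, start sites without a fragment were common. From 200 bp before to 300 bp after the start, 2287 of 9986 high-CpG genes had under 1 fragment in ES cells (22.9%) and 4167 in sperm (41.7%), with medians of 2.77 and 1.18 fragments. At low-CpG genes the medians were 9.09 and 6.59 fragments, and 76 and 131 of 2689 genes had under 1. These counts are not scaled to the totals, of which the ES cell total is the larger.

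Within 1000 bp of the start site, 8417 of the 21083 genes had a higher share in sperm and 12666 a lower one, with a median log2 ratio of -0.18. The median was -0.36 for high-CpG genes, -0.08 for intermediate-CpG genes and 0.13 for low-CpG genes. Of the 19726 genes with a mean of at least 10 fragments, 984 (4.99%) were at least 2-fold higher in sperm and 2211 (11.2%) at least 2-fold lower. That balance depends on the pseudocount and on the scaling. With 5 fragments added to each side, 794 genes were 2-fold higher and 962 lower. Scaled to the median promoter, which moves each log2 ratio up by 0.28, 1965 genes were 2-fold higher and 1053 lower. The families below are therefore described against the median gene at -0.18 as well as by their own values. The interval of a single gene excluded equal shares in 1114 genes on the high side (5.28%) and 1807 on the low side (8.57%).

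Receptor genes of the chemical senses stood highest among the large families. Olfactory receptors, the odorant receptors of the nose, had a median log2 ratio of 0.63 over 1090 genes, 0.81 above the median gene. Of them, 950 were higher in sperm (87.2%, beside 39.9% of all genes) against 140 lower. Of the 1038 with a mean of at least 10 fragments, 246 were 2-fold higher (23.7%, beside 4.99% of all such genes) and 6 were 2-fold lower (0.578%, beside 11.2%). Summed over the family, sperm held 1.52 times the ES cell share, a log2 ratio of 0.60 (0.58 to 0.63). In fragments per gene the family stood at 1.13 times the mean of all genes in ES cells and at 1.83 times in sperm.

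The excess of olfactory receptors was not a feature of the start site. It was 0.71 in both flanks, 0.70 from 1000 to 200 bp upstream, 0.63 in the 200 bp before the start and 0.35 (0.27 to 0.42) in the 300 bp after it. These genes lie in arrays and carry their coding sequence in a single exon. The family's profile dipped inside the gene in both libraries, to 0.51 of the flanks at 350 bp in ES cells and to 0.42 at 210 bp in sperm.

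Single members ranged widely. Olfr613 (chromosome 7, start 110698881) had 3 fragments within 1000 bp in ES cells and 42 in sperm, a log2 ratio of 3.86 (2.22 to 10.13), although its 500 bp start window held no fragment in either library. Olfr791 had the most fragments of the family, 91 in ES cells and 74 in sperm, and its ratio of 0.18 (-0.42 to 0.75) did not exclude equal shares. Olfr282 lay at the other end, with 48 fragments in ES cells and 12 in sperm, -1.43 (-2.71 to -0.43).

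Vomeronasal receptors, the pheromone receptors of a separate sense organ, were shifted as far. The 167 genes of type 1 had a median of 0.63, 142 of them being higher (85.0%) and 25 lower, and a summed ratio of 0.56 (0.49 to 0.64). Type 2 had a median of 0.77 over 101 genes, 92 of them higher (91.1%), and a summed ratio of 0.78 (0.68 to 0.88). Among all genes 39.9% were higher. Vmn2r14 had 11 fragments in ES cells and 41 in sperm (2.30, interval 1.03 to 4.10), and Vmn1r193 had 10 and 33 (2.10, 0.75 to 3.85). The type 1 gene with the most fragments, Vmn1r235, went the other way with 110 and 52 (-0.59, -1.21 to -0.01). Like the other receptors of the chemical senses, type 2 genes had no ratio below 0 in the 300 bp after the start site. Their ratio there was 0.91 (0.63 to 1.20), beside -0.36 for all genes. Olfactory receptors had 0.35 there, type 1 vomeronasal receptors 0.36 and taste and trace amine receptors 0.40. In the 200 bp before the start the type 2 ratio was 0.40 (0.08 to 0.74). Of the 53 taste and trace amine receptors, 43 were higher in sperm (81.1%, beside 39.9% of all genes), with a median of 0.47.

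Keratin-associated proteins, the matrix proteins of hair, were the one structural family at that level, with a median of 0.59. Of 52 genes, 42 were higher (80.8%, beside 39.9% of all genes). Krtap19-1 had 13 fragments in ES cells and 45 in sperm (2.20, 1.03 to 3.81). Keratins themselves, the filament proteins of skin and hair, stood at -0.17, close to the median gene, with 19 of 54 higher (35.2%). Members of these arrays and of the receptor families resemble each other, and the counting of reads that match several places is not stated, which leaves the values of single members uncertain.

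Globins were a small and divided family with a high median. It was 1.30 over 9 genes, of which 6 were higher and 3 lower in sperm. Of the 7 with at least 10 fragments, 6 were 2-fold higher in sperm (85.7%, beside 4.99% of all such genes). Hbb-b2 and Hbb-bt start at 110962417 and 110962437 on chromosome 7 and share their 12 and 22 fragments, so they count as 1 locus among these. Hbb-bh1 and Hbb-y start at 110991676 and 111001721 on the same chromosome, so these Hbb genes are neighbours and not separate cases. Olfr629, nearby at 110889836, had 21 fragments in ES cells and 145 in sperm within 2000 bp. The early beta-like genes Hbb-bh1 and Hbb-y, expressed in the embryo, had 11 and 24 fragments in ES cells and 49 and 63 in sperm (2.56 and 1.81), while Hba-x, an embryonic alpha-like globin, had 47 and 29 (-0.22, -1.09 to 0.67). The summed excess was 1.15 in the upstream flank and 0.99 in the downstream flank, so it was not limited to the promoters.

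**Figure D2:**
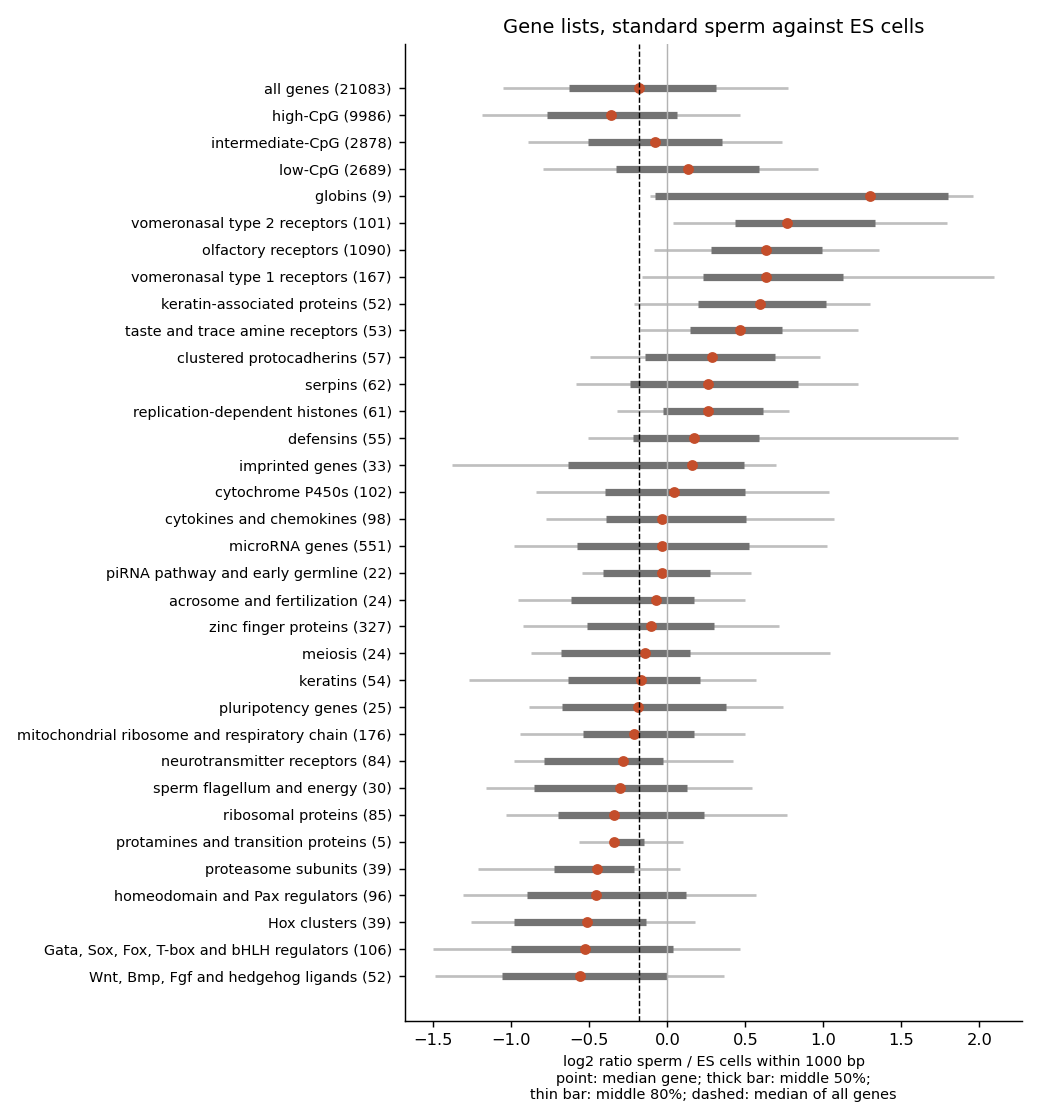
Log2 ratio of sperm to ES cells within 1000 bp of the start site for 30 gene lists and for classes of CpG content, with the number of genes in brackets; points are medians over genes, bars are ranges over genes, and each side is 1 library. Receptors of the chemical senses lie to the right of the dashed line, the median of all genes at -0.18. Developmental regulators, their ligands and proteasome subunits lie to its left.

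Regulators of development stood at the low end, and so did proteasome subunits, at a median of -0.45. Hox genes, which set position along the body axis, had a median of -0.52, 0.34 below the median gene, with 34 of 39 lower in sperm (87.2%). Of high-CpG genes, the class of 36 of the 39, 71.7% were lower and the median was -0.36. Of the 35 Hox genes with at least 10 fragments, 9 were 2-fold lower (25.7%, beside 11.2% of all such genes and 15.1% of high-CpG ones). The number 2-fold higher was 0, beside shares of 4.99% and 1.95%. Hoxa9 had 29 fragments in ES cells and 31 in sperm (0.58, -0.35 to 1.72), and Hoxd13 had 23 and 13 (-0.31, -1.64 to 0.99). The Hox deficit reached past the promoters, with -0.37 in the upstream flank and -0.71 (-0.93 to -0.49) in the downstream flank, where high-CpG promoters at large had -0.06.

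The other developmental lists stood alike. Homeodomain and Pax regulators had a median of -0.46 (71 of 96 lower), the regulators of the Gata, Sox, Fox, T-box and bHLH families -0.53 (78 of 106 lower), and the Wnt, Bmp, Fgf and hedgehog ligands -0.56 (39 of 52 lower). Most of these genes have high-CpG promoters (74, 74 and 39 genes), whose own median was -0.36, so the lists lay 0.10 to 0.20 below their class. That distance depends on the pseudocount and the window: with 5 fragments added the medians were -0.24, -0.31 and -0.38 and the class stood at -0.23, and within 2000 bp they were -0.31, -0.24 and -0.36 beside -0.19. Among high-CpG genes 71.7% were lower in sperm, so the share of lower genes in each list was close to that of the class. Summed over their genes, the lists had ratios of -0.37, -0.43 and -0.53, beside -0.34 for high-CpG genes. Hand1, a heart and trophoblast regulator, had 37 fragments in ES cells and 6 in sperm (-2.04, -4.02 to -0.73). The growth factor gene Fgf1 had 50 and 11 (-1.64, -2.90 to -0.53). In the 300 bp after the start the ligands had -1.04 (-1.61 to -0.53) and the homeodomain genes -0.91 (-1.37 to -0.45), near the -0.94 of high-CpG promoters.

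Housekeeping genes had a deficit after the start site like that of high-CpG promoters, the class of most of them. Ribosomal protein genes had -0.96 (-1.46 to -0.45) in the 300 bp after the start, and -0.05 and 0.00 in the flanks. High-CpG promoters at large had -0.94, -0.01 and -0.06. Proteasome subunits, parts of the main protein-degrading complex, had -1.01 (-1.60 to -0.43) after the start. From 1000 to 200 bp upstream they had -0.47, beside -0.25 for high-CpG promoters. Within 1000 bp their median was -0.45, with 33 of 39 genes lower in sperm (84.6%). Of high-CpG genes, the class of 35 of the 39, 71.7% were lower. Genes of the mitochondrial ribosome and respiratory chain had -0.81 (-1.07 to -0.54) after the start, but 0.26 (-0.04 to 0.56) in the 200 bp before it. Among single genes, Rpl19 had 41 fragments in ES cells and 9 in sperm (-1.62), Psmd3 had 40 and 10 (-1.40), and Mrpl35, the highest of its list, had 22 and 41 (1.35, 0.39 to 2.60). Actb, the cytoskeletal actin, had 30 and 7 (-1.39, -3.01 to -0.05), and Gapdh, a glycolytic enzyme, had 21 and 11 (-0.39, -1.88 to 0.96).

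Replication-dependent histone genes, which lack introns and lie in clusters, differed from other CpG-rich genes just upstream of the start. Their 200 bp before the start site had a log2 ratio of 1.11 (0.60 to 1.61), from 151 fragments in sperm and 96.9 in ES cells, beside -0.29 for high-CpG promoters. Measured against its own flanks, that stretch stood at 0.377 in ES cells and 0.697 in sperm. The 300 bp after the start stood at 0.187 and 0.144. Within 1000 bp their median was 0.26, with 44 of 61 genes higher in sperm (72.1%), beside 39.9% of all genes and 28.3% of high-CpG ones. H2bc22 had 16 and 27 fragments (1.22, 0.13 to 2.83), and H2ac20 had 47 and 16 (-1.04, -2.19 to -0.08). Histone copies are near-identical in sequence, so the division of reads among them is uncertain. Where 2 starts lie close together their windows share fragments, which were counted for each gene, and the interval does not allow for that.

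Clustered protocadherins, the cell-surface identity proteins of neurons, had an excess in sperm upstream of the start site and none downstream of it. Their ratio was 0.56 (0.42 to 0.69) in the upstream flank and 0.40 (0.03 to 0.77) in the 200 bp before the start, then -0.16 (-0.52 to 0.19) in the 300 bp after it and -0.17 (-0.37 to 0.03) in the downstream flank. Of 57 genes, 43 have high-CpG promoters, and these genes carry a long first exon, so the downstream windows lie in coding sequence. High-CpG promoters at large also dropped across the start, from -0.29 to -0.94, while their flanks were alike (-0.01 and -0.06). Pcdhb9 had 14 fragments in ES cells and 38 in sperm (1.82, 0.62 to 3.24) and Pcdhgb2 had 52 and 20 (-0.87).

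**Figure D3:**
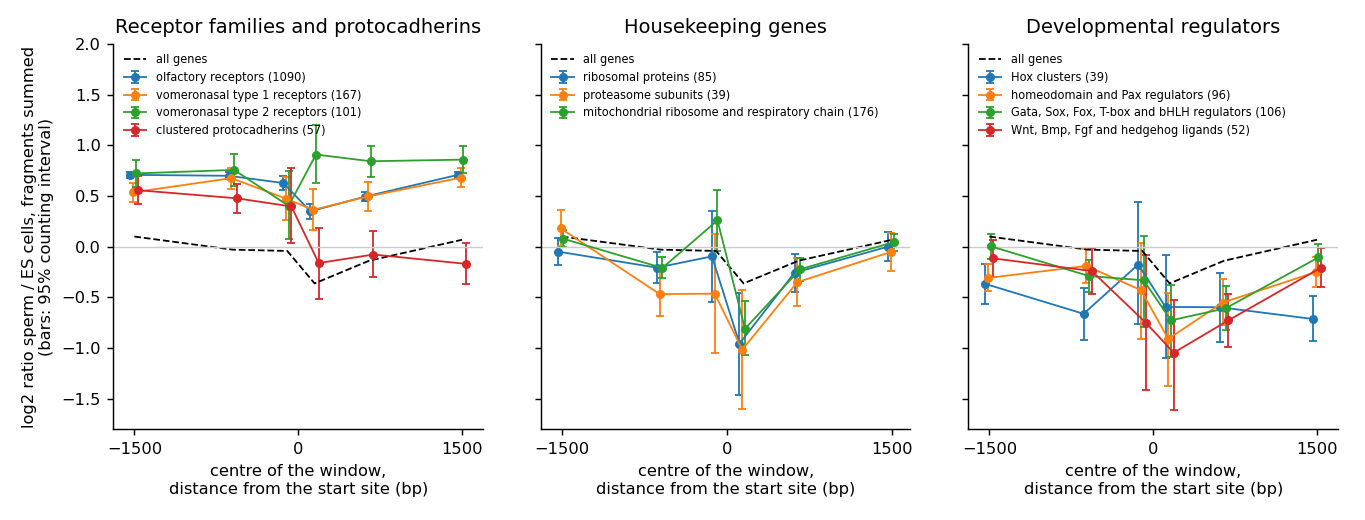
Log2 ratio of sperm to ES cells, with fragments summed over the genes of a list, in 6 windows along the promoter, plotted at the centre of each window in bp from the start site; bars are 95% counting intervals and the dashed line is all genes, 1 library a side. The receptors stay above 0 along the whole stretch, and the housekeeping lists dip to between -1.01 and -0.81 after the start site. Protocadherins drop to -0.16 there, with an interval that spans 0.

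Genes of pluripotency and of the male germ line had medians near that of all genes within 1000 bp. Pluripotency genes had a median of -0.19 over 25 genes and a summed ratio of -0.14 (-0.34 to 0.07). Pou5f1, which encodes the transcription factor Oct4, was the lowest of them with 33 fragments in ES cells and 9 in sperm (-1.31, -2.89 to -0.15), and its start window held 11 and 0. Nanog had 44 and 28 (-0.17), Sox2 had 13 and 7 (-0.40) and Klf4 had 9 and 9 (0.50), each with an interval that spans 0. Zfp42, a marker of ES cells, was the highest with 16 and 31 (1.38, 0.25 to 2.93).

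Protamine and transition protein genes, whose products replace histones in spermatids, had a median of -0.34 over 5 genes and a summed ratio of -0.28 (-0.76 to 0.18). Prm1 had 27 and 15 fragments (-0.34), Prm2 43 and 24 (-0.35) and Tnp1 41 and 26 (-0.15), so none of the 3 excluded equal shares. The lists of the sperm flagellum (-0.30 over 30 genes), acrosome (-0.07 over 24), meiosis (-0.14 over 24) and piRNA pathway (-0.04 over 22) also had medians within 0.14 of the median gene. Catsperb, a subunit of the sperm calcium channel, was the highest of these with 19 and 59 fragments (2.03, 1.07 to 3.30), and Tssk2, a testis kinase, the lowest with 35 and 7 (-1.63, -3.17 to -0.29). Ddx4, a germ cell RNA helicase, had 16 and 34 (1.46, 0.29 to 2.78), and Dazl, another germ cell RNA-binding protein, 11 and 6 (-0.36, -2.58 to 1.66). In the 500 bp start window the summed ratio of the acrosome list was -0.57 (-0.97 to -0.16), beside -0.22 for all genes. The flagellum, meiosis and piRNA lists had -0.30, -0.20 and -0.43 there, each with an interval that spans 0.

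Imprinted genes, expressed from 1 parental copy, had a median of 0.16 and a summed ratio of -0.02 (-0.20 to 0.17). Snrpn, expressed from the paternal copy, was the highest with 19 fragments in ES cells and 42 in sperm (1.58, 0.55 to 2.85). Kcnq1, expressed from the maternal copy, was the lowest with 45 and 7 (-2.01, -3.86 to -0.91). Whether ratios went with the parental copy was not tested. Of the 32 with at least 10 fragments, 6 were 2-fold lower (18.8%) and 1 was 2-fold higher (3.12%). The shares were 11.2% and 4.99% of all such genes, and 15.1% and 1.95% of high-CpG ones, the class of 19 of the 33 imprinted genes. The remaining lists had medians between -0.28 for 84 neurotransmitter receptors and 0.26 for 62 serpins, with -0.11 for 327 zinc finger proteins, -0.04 for 98 cytokines and chemokines and for 551 microRNA genes, 0.04 for 102 cytochrome P450s and 0.17 for 55 defensins. Mir2137 had the lowest ratio of the microRNA genes, with 39 fragments in ES cells and 3 in sperm (-2.91, -5.45 to -1.27).

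At single start sites the extremes were of different kinds. In the window from 200 bp before to 300 bp after the start, 2513 genes had a mean of at least 10 fragments, of which 9.95% were 2-fold higher in sperm and 11.9% 2-fold lower. Among genes with at least 15 fragments in the larger library, the 8 lowest in sperm were Klhl42 (18 fragments in ES cells and 0 in sperm), Arhgef15 (16 and 0), H2-Ob (21 and 0), Nudt5 (21 and 1), Cdc123 (25 and 1), Ucp1 (17 and 1), Csdc2 (15 and 1) and Gm7904 (21 and 1). Nudt5 and Cdc123 start at 5766079 and 5766006 on chromosome 2, so their windows share most of their fragments and count as 1 locus. Within 2000 bp the log2 ratio of Nudt5 was -0.54 and that of H2-Ob -0.61, but the genes were picked by the start window, so a milder ratio in a wider one shows nothing of their shape.

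The 8 highest in sperm were Trim30e-ps1 (0 fragments in ES cells and 22 in sperm), Skint9 (0 and 19), Klri2 (0 and 17), Skint4 (0 and 17), Olfr1204 (0 and 15), Nlrp1b (0 and 15), Olfr251 (1 and 17) and Klrh1 (1 and 17). Among these 8 are 2 olfactory receptors, 2 Skint genes and 2 killer cell lectin-like receptor genes. At Trim30e-ps1, Skint9, Skint4 and Nlrp1b the absence in ES cells was not limited to the start site. The others were also lower in ES cells within 1000 bp. Klri2 had 4 fragments in ES cells and 81 in sperm there, Klrh1 2 and 47, Olfr251 9 and 50 and Olfr1204 19 and 55.

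Of all genes, 21 had fewer than 4 fragments in ES cells and at least 20 in sperm within 2000 bp, limits that were set after the values were seen, and 0 genes had the reverse at a matching limit. Their ES cell fragments summed to 17.1, where the sperm share would give 1777. At 11 of them ES cells had exactly 0. Skint9 (chromosome 4, start 112106590) had 0 fragments against 139 in sperm, at least 64.2-fold higher when the ES cell value is set at a floor of 3 fragments. Skint3 had 0 and 132, Skint6 0 and 106 and Skint4 0 and 91, while Skint10, which lies among them, had 84.6 and 104.

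Other runs of neighbours were alike. Nlrp1b and Nlrp1c-ps, inflammasome sensor genes of chromosome 11, had 0 fragments in ES cells and 85 and 74 in sperm. Trim30e-ps1 had 0 and 116, Trim30b 1.0 and 30 and Trim30d 4.0 and 33, while Trim30a between them had 54.8 and 49.5. In the Klra genes, natural killer cell receptors of chromosome 6, Klra3 had 0 and 40, Klra13-ps 1.0 and 44 and Klra6 3.9 and 75, while Klra4 had 31.5 and 49.9 and Klra7 44.6 and 107. Klra8 (3.3 and 10.0), Klra9 (2.0 and 7.2) and Klra10 (0 and 16.8) lie in the same run and were also near 0 in ES cells, but missed the limit on the sperm side. Mrgpra3, a receptor of itch neurons, and Pnp2, a purine nucleoside phosphorylase, also had 0 in ES cells, with 46 and 24 in sperm.

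Hprt (chromosome X, start 50341254) was the one high-CpG gene among the 21, with 0 fragments in ES cells and 37 in sperm, at least 17.3-fold higher by the same floor. Its neighbours had fragments in both: Phf6, 75.8 kb upstream, had 41.0 and 40.7 fragments, and Mir450b, 60.0 kb downstream, had 58.2 and 52.8. The unspun sperm libraries, summed over 4 doses, held 2 fragments at Hprt, where 4.15 would match the standard sperm share. At the other 20 genes they held 17.3 (9.75 to 27.7, exact Poisson interval), where 138 would match it, and 16 of the 20 had 0. Of those 17.3 fragments 10.9 were at Mrgpra3, and the 4 Skint genes had 0 where 51.9 would match. The 19 genes left without Hprt and Mrgpra3 summed to 6.41 unspun fragments (2.35 to 13.9), where 133 would match the standard sperm share. Of these, 4.91 were at Ugt2b38, a glucuronosyltransferase gene with 66 fragments in the standard sperm library.

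**Figure D4:**
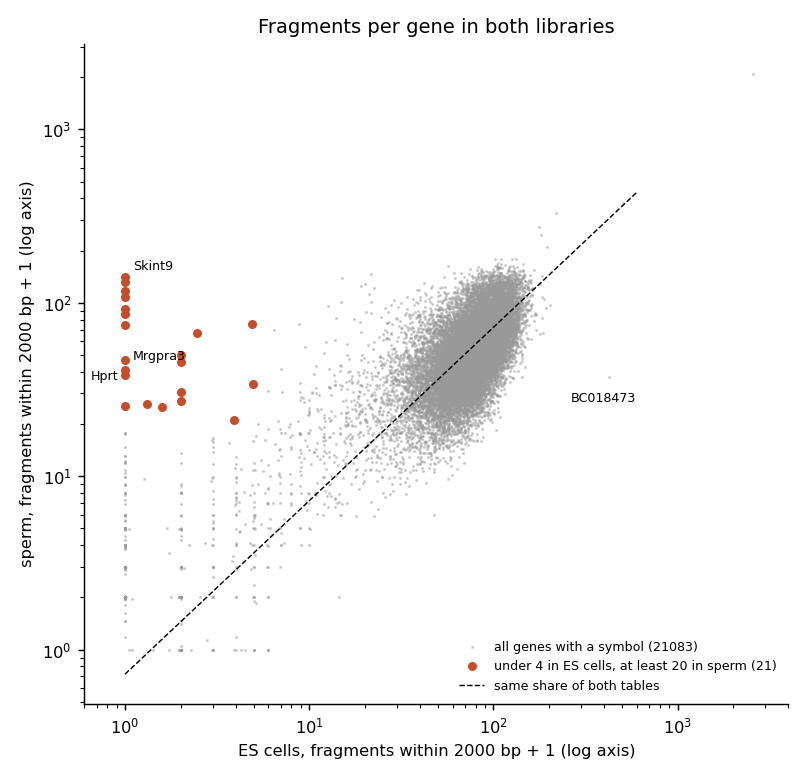
Fragments within 2000 bp of the start site plus 1, ES cells against sperm, on log axes, 1 point per gene and 1 library a side. The 21 genes near 0 in ES cells lie along the left edge at 20 to 139 sperm fragments, and no gene lies in the matching place near 0 in sperm.

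Among genes just outside the limit, Olfr725 had 5 fragments in ES cells and 69 in sperm, Olfr251 14 and 138, and Smok2b, a testis kinase, 8 and 74. Over the 20449 genes with a mean of at least 20 fragments within 2000 bp, 752 (3.68%) were 2-fold higher and 859 (4.2%) 2-fold lower in sperm. Past 4-fold the counts were 57 higher against 7 lower, and past 8-fold 24 against 1. The sperm side of the 4-fold and 8-fold counts includes genes already listed for lacking ES cell fragments, such as Skint9, Skint3 and Nlrp1b. These counts are therefore not separate from that list, and the overlap was not counted. The 1 gene past 8-fold on the ES cell side was BC018473 (chromosome 11, start 116613480), with 424 fragments in ES cells and 36 in sperm (-3.05, -3.68 to -2.55).

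Within the low-CpG class the ratios fell as the number of CpG in the RefSeq promoter rose. A promoter sequence was found for 2187 of its 2689 genes (81.3%); over all genes it was found for 76.6%, too few for the same comparison there. Genes outside the chemosensory families had median log2 ratios of 0.31 with 0 CpG in 300 bases (134 genes), 0.25 with 1 (193 genes), -0.04 with 2 or 3 (485 genes) and -0.21 with 4 or more (728 genes). Chemosensory receptors at the same counts had 0.66, 0.60, 0.51 and 0.21 over 233, 236, 160 and 18 genes, above the other genes each time. Their promoters also had less G and C, a median of 33.3% against 44.7% at 0 CpG, so the families were not matched on base content by this count. From 0 CpG to 4 or more, median G and C rose from 44.7% to 54.7% in other genes and from 33.3% to 44.5% in receptors. The number of CpG and base content were therefore not separated here.

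Chromosomes differed as well. The median over genes was lowest on chromosome 11 (-0.42, 1648 genes) and chromosome 15 (-0.32, 783 genes) and highest on the X (0.06, 856 genes) and chromosome 6 (0.06, 1133 genes), apart from 9 genes of the Y. Among high-CpG genes alone the range was from -0.52 on chromosome 11 to -0.17 on the X. Among low-CpG genes, which include most olfactory receptors, it was from -0.28 on chromosome 15 to 0.47 on chromosome 2.

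The unspun sperm libraries, set against the same ES cell library, gave the other sign for the receptor families and for high-CpG genes and several developmental lists, but not for every family at the ends. Olfactory receptors had summed log2 ratios of -0.28, -0.85, -0.87 and -0.69 at 0.5, 2, 10 and 50 units, beside 0.60 in the standard supernatant. Type 1 vomeronasal receptors had -0.93, -1.15, -1.35 and -1.90 beside 0.56, and type 2 had -0.86, -1.65, -1.13 and -2.11 beside 0.78. In the other direction, the Gata, Sox, Fox, T-box and bHLH regulators had 0.39, 0.91, 0.80 and 1.25 beside -0.43, and homeodomain and Pax regulators 0.31, 0.67, 1.02 and 1.55 beside -0.37. High-CpG genes had 0.17, 0.37, 0.44 and 0.65 beside -0.34. Globins, at 1.31 in the standard supernatant, had 0.50, -0.84, -0.92 and 1.57 from at most 8 fragments a library, and keratin-associated proteins had 0.30, -0.18, -0.97 and -0.64 beside 0.61. Proteasome subunits had -0.46, 0.33, -0.04 and 0.16 beside -0.46. These comparisons share their ES cell library, and the unspun tables are shallow, with 396 to 793 fragments over all olfactory receptors per library. The order of families between sperm and ES cells thus differed between the sperm preparations, and the part of the spin and of the dose in that was not tested. How many sperm went into the unspun digests is not stated, and their units therefore cannot be put on the scale of the standard digest.

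**Figure D5:**
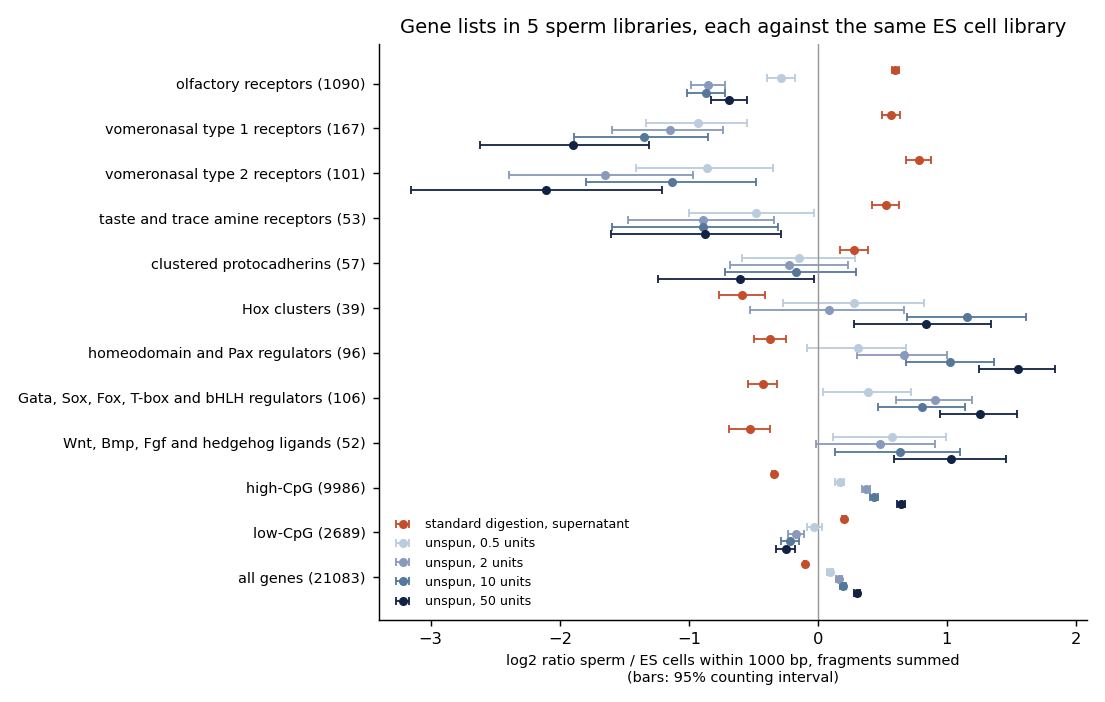
Log2 ratio of each of 5 sperm libraries to the same ES cell library within 1000 bp of the start site, with fragments summed over the genes of a list (number in brackets); bars are 95% counting intervals. Receptor lists lie at 0.52 to 0.78 in the standard supernatant and below 0 in the 4 unspun libraries, and high-CpG genes at -0.34 and 0.17 to 0.65.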

How the data were processed

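MNase digests of E14 ES cells and of sperm were compared in 2 libraries, with 4 unspun sperm libraries beside them. The authors deposited a signal: a whole-number pileup per 20 bp bin, unscaled, of fragments of 135 to 165 bp, as the table names state. The submitters' processing notes name Bowtie, SAMtools 0.1.16 and the build mm9. Read filters, and what was done with duplicates and repeated matches, are not given in the sources. CpG classes come from a column of 1 deposited count table, in the authors' abbreviations HCP, ICP and LCP, whose limits are not given; no counts of that table were used.

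The tables hold 28015 rows at 24084 positions. RefSeq transcripts of 27264 rows matched symbols of GRCm38.p6, used for names only. Rows share bins where start sites lie close together, and sums over a list count shared fragments for each gene, which the intervals do not allow for. Table sums were divided by 22, the pileup of a lone fragment, and by each library's total. Each gene was read at the start site with the most scaled signal. Exact conditional binomial intervals were made on fragments divided by the stacking of lone fragments, a step added after the data were seen; ratios were tested on simulated data. Analysis used Python 3.11.15, NumPy 2.4.6, pandas 2.3.3 and SciPy 1.17.1.

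Members and lists were chosen with earlier results of these data known. Genes were named by rule: the 8 highest and 8 lowest start-site ratios among genes with at least 15 fragments in the larger library, the best-covered, highest and lowest member of each list among those with a mean of at least 20 fragments, and a set of well-known genes by name. Some genes that this rule names are not reported here. The 21 genes near 0 in ES cells, their neighbours and the genes just outside that limit were chosen after their values were seen. The list of histone genes was rewritten to current symbols after the tables were read. Nucleosome peaks had been planned for measurement, but the smoothing of the signal left none to read, so the minimum and the width were measured instead. The other 7 count tables, the unspun ES cell, sonicated input and histone H3 samples were not analysed here. Each group held 1 library.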

Additional observations from a re-analysis of the deposited data

Results flagged for a closer look

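A difference was singled out where the standard sperm library lay on one side of the ES cell library, by its 95% counting interval, and each of the 4 unspun sperm libraries on the other. Each such difference compares 1 library with 4 of other doses against 1 shared ES cell library and was not tested, and what sets the libraries apart was not tested.

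Of the families, olfactory receptors had a summed log2 ratio to ES cells of 0.60 in the standard supernatant and -0.87 to -0.28 in the unspun libraries. Type 1 vomeronasal receptors had 0.56 against -1.90 to -0.93. Type 2 vomeronasal receptors had 0.78 against -2.11 to -0.86. Taste and trace amine receptors had 0.52 against -0.89 to -0.48. The Gata, Sox, Fox, T-box and bHLH regulators went the other way, with -0.43 against 0.39 to 1.25. All genes together had -0.10 against 0.09 to 0.31, and high-CpG genes -0.34 against 0.17 to 0.65.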

How the results depend on the processing

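No paired analysis was possible because each group held 1 library, and for the same reason no replicate could be left out. Scaling to the median promoter raised each log2 ratio by 0.28. The median of all genes then changed sign to 0.10, as did those of keratins (0.11), mitochondrial ribosome and respiratory chain genes (0.067) and zinc finger proteins (0.18). The medians became -0.078 for high-CpG, 0.20 for intermediate-CpG and 0.42 for low-CpG genes and 0.91 for olfactory receptors, and 1965 genes were 2-fold higher against 1053 lower. The signs of 23 of 34 medians were kept under that scaling, and of 30 to 34 under each other setting.

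Within 500 bp the medians were -0.21 for all, -0.42 for high-CpG and -0.14 for intermediate-CpG genes and 0.59 for olfactory receptors. Within 2000 bp they were -0.067, -0.19 and 0.00041, with 0.18 for low-CpG genes and 0.67 for olfactory receptors. A pseudocount of 5 gave -0.083, -0.23 and -0.016, brought zinc finger proteins to 0.00011 and left 794 genes 2-fold higher and 962 lower. The start-site window, with fewer genes tested, gave 250 genes 2-fold higher and 299 lower, and a mean of at least 20 fragments gave 701 higher and 1373 lower. Without the division for stacking, 1989 and 3069 genes had intervals above and below 0. Leaving out the 21 genes near 0 in ES cells moved no median by more than 0.01; these last 2 settings were chosen after seeing the data.

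With flanks from 500 bp, high-CpG promoters stood at 0.360 in ES cells and 0.316 in sperm in the 200 bp before the start and at 0.329 and 0.183 in the 300 bp after it. Sperm stood at 0.722 and 0.623 at intermediate-CpG and at 0.874 and 0.688 at low-CpG promoters. Smoothing over 5 bins widened the ES cell gap over all start sites to 800 bp. With each promoter scaled to its own total the widths were 800 bp in ES cells and 960 bp in sperm over all start sites, and in sperm 1040 bp at high-CpG and 720 bp at low-CpG promoters. Depth limits single genes: start sites held 33.0 fragments in ES cells and 22.1 in sperm within 1000 bp on average.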
